A study of Mus musculus with 6 samples.

Results

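The platelet-derived growth factor (PDGF) genes of the mouse were followed in the aorta of Apoe-/- mice given erythropoietin or saline. The family was taken by gene symbol from the deposited count table and has 7 members: the ligand genes Pdgfa, Pdgfb, Pdgfc and Pdgfd, the receptor genes Pdgfra and Pdgfrb, and the receptor-like gene Pdgfrl. All 7 were found among the 47643 genes of the table, and all 7 were among the 16522 genes that passed the filter on low counts. Every mouse was Apoe-/-, so it lacked apolipoprotein E, a lipid carrier of the blood whose loss raises plasma cholesterol and leads to atherosclerosis. Intraperitoneal injections were given for 4 weeks, of saline in the Vehicle group and, in the EPO group, of recombinant human erythropoietin (the hormone of red cell production) at a daily dose of 5000 IU per kg. RNA of the entire aorta was sequenced in 3 libraries per group. The labels do not state that each library came from a separate animal, so the spread that p-values are judged against is that of 6 libraries and may be partly technical.

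PDGF proteins are secreted dimers that act on a pair of receptor tyrosine kinases. The alpha receptor (Pdgfra) binds the A, B and C chains and is a mark of fibroblasts and other mesenchymal cells, and the beta receptor (Pdgfrb) binds the B and D chains and is found on smooth muscle cells, pericytes and fibroblasts. In the vessel wall, PDGF-B from endothelium recruits mural cells, and PDGF signalling is best known for driving the migration and division of smooth muscle cells in injured and atherosclerotic arteries. The A and B chains are cut inside the cell by furin-like proteases, whereas the C and D chains leave the cell in a latent form whose CUB domain is removed outside, PDGF-C by tissue plasminogen activator and PDGF-D by urokinase or matriptase.

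With EPO, 3 members rose and 1 fell. The beta receptor gene Pdgfrb and the receptor-like gene Pdgfrl were each about 2-fold higher (2.03-fold and 2.08-fold), the ligand gene Pdgfc was 1.84-fold higher, and the ligand gene Pdgfd was 2.52-fold lower. Pdgfa, Pdgfb and Pdgfra did not pass the test. Changes are those of edgeR's quasi-likelihood test, called at a Benjamini-Hochberg adjusted p under 0.05 over all genes tested, and levels are CPM, counts scaled to library size with TMM factors. The share of all tested genes called in this comparison was 23%, with 12.9% higher and 10.1% lower, against 4 of the 7 members. The median log2 fold change was 0.77 over the members and 0.01 over all genes tested. Groups did not overlap in CPM for 6 members, 5 with the EPO libraries all above and 1 with them all below; of all tested genes, 43.8% had groups that did not overlap, 22.9% above and 21% below.

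Several features of the libraries bear on every value below. Total counts ran from 23278649 to 27904322 in Vehicle and from 28798632 to 38502430 in EPO, and the lowest count of any member was 836, for which the counting error alone is 3.46%. EPO 1 stood apart from EPO 2 and EPO 3 on the second principal component of all tested genes (52.8 against -27.9 and -36.2, with 16% of the variance). Skeletal muscle genes took 0.132%, 0.346% and 0.0433% of the counts in EPO 1, 2 and 3, and between 0.000878% and 0.00344% in Vehicle. The arterial label was borne out by Myh11 and Acta2, which define smooth muscle, at 4359 and 8657 CPM or more in Vehicle, though they fell to between 927 and 1825 CPM and between 2715 and 3985 CPM in EPO (log2 fold changes -1.94 and -1.62, edgeR adjusted p = 0.00518 and 0.00603). In whole tissue, fewer cells of a type and less RNA per cell cannot be told apart.

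**Figure D1:**
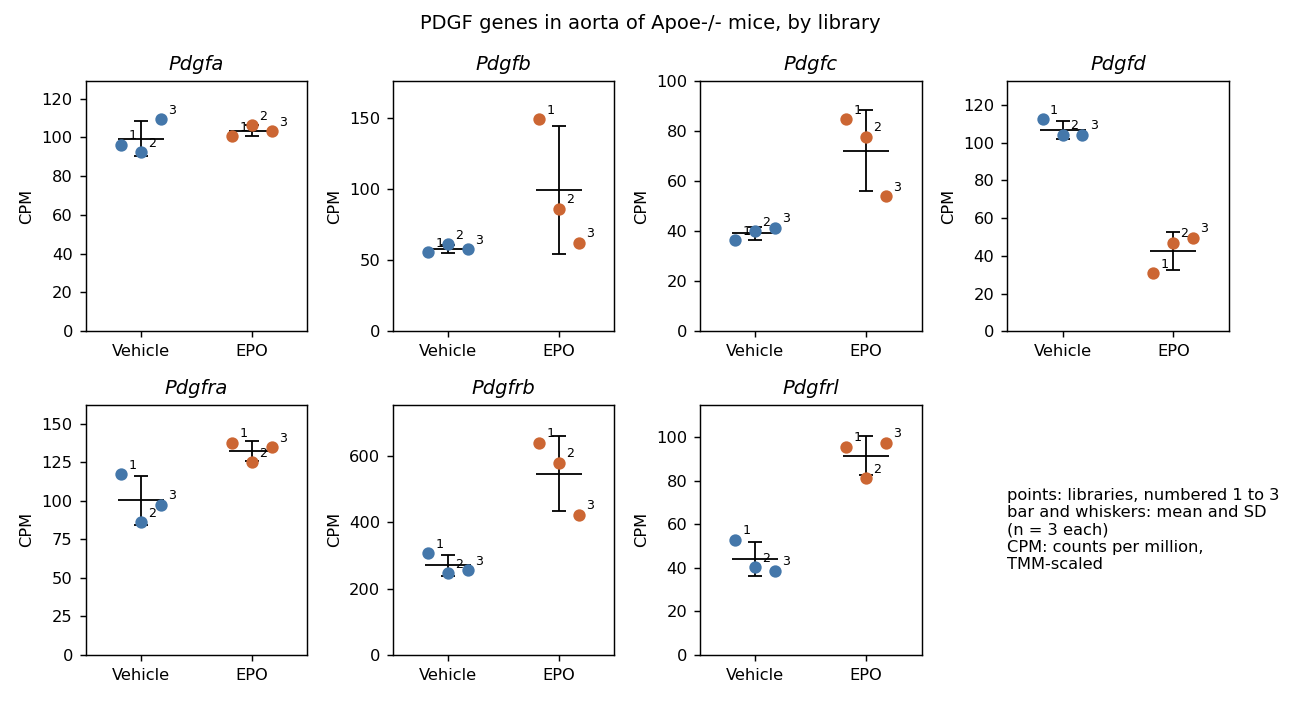
Level of each PDGF gene in CPM (y axis, from 0) in the 3 Vehicle and 3 EPO libraries (points, numbered 1 to 3), with the mean and SD of each group. Pdgfd lies between 104 and 112.5 CPM in Vehicle and between 30.9 and 49.7 CPM in EPO, Pdgfrb and Pdgfrl are higher in every EPO library, and Pdgfb is spread from 62.3 to 149 CPM in EPO.

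Among the ligands, Pdgfd (ENSMUSG00000032006, GRCm38 chromosome 9, 6168584 to 6378850, plus strand), which encodes the D chain, a ligand of the beta receptor, had the largest change of the 7. Its level was 112.5, 104 and 104 CPM in Vehicle 1, 2 and 3 and 30.9, 46.9 and 49.7 CPM in EPO 1, 2 and 3. The Vehicle libraries lay close together, and the highest EPO library was below the lowest of them by a wide margin, with EPO 1 the lowest of all. The group means were 107 ± 4.80 and 42.5 ± 10.1 CPM (SD, n = 3 each), a log2 fold change of -1.33 (SE 0.19, 95% interval -1.77 to -0.90, edgeR adjusted p = 0.00402). Pdgfd fell in each of 16 alternative analyses, with the fit on Vehicle and EPO 3 alone giving -1.10 (edgeR adjusted p = 0.0173). Smooth muscle and pericyte markers moved with it: 8 of 10 smooth muscle and 5 of 9 pericyte markers were lower and 0 and 1 higher. The summed smooth muscle list was at 21160 to 30140 CPM in Vehicle and at 7614, 8470 and 10050 CPM in EPO 1, 2 and 3, the order Pdgfd also had, and the summed pericyte list at 3712 to 4502 CPM in Vehicle and 1483 to 1996 CPM in EPO. Their part in the fall of Pdgfd was not tested.

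Pdgfc (ENSMUSG00000028019, chromosome 3, 81036416 to 81214040, plus strand) encodes the C chain, a ligand of the alpha receptor. It was at 36.3, 40.0 and 41.4 CPM in Vehicle 1, 2 and 3 and at 84.9, 77.8 and 54.2 CPM in EPO 1, 2 and 3. All EPO libraries were above all Vehicle libraries, and EPO 3 was the nearest to them. The mean went from 39.2 ± 2.61 to 72.3 ± 16.1 CPM (SD, n = 3), a log2 fold change of 0.88 (SE 0.18, 95% interval 0.47 to 1.30, edgeR adjusted p = 0.0135). This call was lost without Vehicle 1 (adjusted p = 0.0661) or Vehicle 2 (0.0505), and with EPO 3 as the only EPO library the log2 fold change was 0.47 (edgeR adjusted p = 0.0888). A gene model on the opposite strand, Gm16000, shares 147 exon bases with Pdgfc, but it had at most 1 count in any library.

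Since Pdgfc and Pdgfd, both genes of latent ligands, moved in opposite directions, the 300 bases around their RefSeq start sites are shown, 250 before and 50 after, on build GRCm38.p6 and on the strand of the gene, with motif matches in capitals.
Pdgfc, chr3:81036166-81036465, plus strand: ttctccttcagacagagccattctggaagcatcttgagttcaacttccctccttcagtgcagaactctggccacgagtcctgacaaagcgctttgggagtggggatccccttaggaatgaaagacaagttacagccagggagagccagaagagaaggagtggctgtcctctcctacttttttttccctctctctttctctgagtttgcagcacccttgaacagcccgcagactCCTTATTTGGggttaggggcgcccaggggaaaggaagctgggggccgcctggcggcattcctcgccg
Pdgfd, chr9:6168236-6168535, plus strand: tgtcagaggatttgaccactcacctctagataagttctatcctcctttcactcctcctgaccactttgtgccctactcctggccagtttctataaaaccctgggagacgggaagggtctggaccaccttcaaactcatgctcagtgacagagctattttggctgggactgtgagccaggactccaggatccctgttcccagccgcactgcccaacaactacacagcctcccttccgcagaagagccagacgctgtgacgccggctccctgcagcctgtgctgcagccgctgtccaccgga
The capitals in Pdgfc mark a CArG box, the sequence recognised by serum response factor, which starts 17 bases before the RefSeq start site; the motif is in 1.63% of 32851 promoter windows of this length. The other motifs searched on both strands were TTCNNNGAA (the STAT site, in 8.3% of all windows), GGGCGG (35.7%), TGANTCA (7.81%), CCAAT (37.4%) and CACGTG (7.15%). None of these had a match in the Pdgfc window. The Pdgfd window held no match to any of the 6 motifs, which says only that these letters are not in this window. Of the 7 members, RefSeq promoter windows were read for Pdgfa, Pdgfc, Pdgfd and Pdgfra, with a pair of windows for Pdgfa. No window was read for Pdgfb, Pdgfrb or Pdgfrl. Whether a RefSeq promoter exists for these genes, and which motifs it holds, was not tested. GGGCGG occurred once in the downstream Pdgfa window and at 2 places in the other, and the Pdgfra window had no match. These matches are letters in a reference and were not measured as binding.

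Pdgfb (ENSMUSG00000000489, chromosome 15, 79995874 to 80014977, minus strand) encodes the B chain, which binds both receptors. It stood at 55.7, 61.1 and 57.6 CPM in Vehicle 1, 2 and 3 and at 149, 86.2 and 62.3 CPM in EPO 1, 2 and 3. The groups did not overlap, but EPO 3 was only just above Vehicle 2, and EPO 1 was far above the other EPO libraries. The means were 58.1 ± 2.73 and 99.3 ± 44.97 CPM (SD, n = 3), a log2 fold change of 0.77 (SE 0.29, 95% interval 0.09 to 1.45, unadjusted p = 0.0311, edgeR adjusted p = 0.0968), so it did not pass. It passed in edgeR without EPO 3 (1.02, adjusted p = 0.0287) and with no filter on low counts (adjusted p = 0.0444), and in DESeq2 (adjusted p = 0.0468), whereas without EPO 1 the log2 fold change was 0.34 (edgeR adjusted p = 0.139). The macrophage list followed the same order of EPO libraries, with summed levels of 7915, 3996 and 3556 CPM in EPO 1, 2 and 3 and 1622 to 3401 CPM in Vehicle. Of 9 macrophage markers 2 were higher and 1 lower, and 7 were higher and 1 lower at an unadjusted edgeR p under 0.05. Endothelial markers, the list of a main source of PDGF-B, had this order too, with sums of 1746, 1425 and 1214 CPM in EPO 1, 2 and 3 and 1484 to 1661 CPM in Vehicle. Of these 9 markers 1 was higher, the cadherin gene Cdh5 (0.87, edgeR adjusted p = 0.0117; 0.0545 without Vehicle 1), and 1 lower, Pecam1 (-0.575, adjusted p = 0.0242), which passed without EPO 1 and lost its call with any other single library left out (highest adjusted p = 0.0827). Platelets carry PDGF protein, and 2 of 7 tested platelet markers were higher, with sums of 129, 137 and 252 CPM in EPO 1, 2 and 3 and 42.1 to 49.8 CPM in Vehicle. At an unadjusted edgeR p under 0.05, 6 platelet markers were higher and 0 lower. Pf4 alone gave 84.3, 107 and 134 CPM of the sums in EPO 1, 2 and 3. Gp1ba, named after its values were seen, was at -0.70 and did not pass (edgeR adjusted p = 0.186). The share called was 33.3% of macrophage, 22.2% of endothelial and 28.6% of tested platelet markers, where it was 23% of all genes tested. The part of these cells in the Pdgfb values was not tested.

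Pdgfa (ENSMUSG00000025856, chromosome 5, 138976014 to 138997370, minus strand), the gene of the A chain and a ligand of the alpha receptor, was nearly level. Its values were 96.3, 92.5 and 109 CPM in Vehicle 1, 2 and 3 and 100.6, 106 and 103 CPM in EPO 1, 2 and 3. The EPO values fell inside the Vehicle range. The log2 fold change was 0.06 (SE 0.12, 95% interval -0.21 to 0.33, edgeR adjusted p = 0.753), an interval whose upper end is well under that of a doubling. The call is limited by strand: 6330403L08Rik, a gene of the opposite strand that shares 813 exon bases with Pdgfa, had 703 to 1027 counts in Vehicle and 761 to 1085 in EPO, did not pass the test either, and could exchange reads with Pdgfa if counting ignored strand.

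Of the receptors, Pdgfrb (ENSMUSG00000024620, chromosome 18, 61045150 to 61085061, plus strand) rose from 307, 246 and 256 CPM in Vehicle 1, 2 and 3 to 639, 578 and 422 CPM in EPO 1, 2 and 3. The groups were clearly apart, and within EPO the order of libraries was that of Pdgfc and Pdgfb, with EPO 1 highest and EPO 3 lowest. The means were 269.5 ± 32.6 and 546.5 ± 112 CPM (SD, n = 3), a log2 fold change of 1.02 (SE 0.19, 95% interval 0.57 to 1.47, edgeR adjusted p = 0.0106). With any 1 library left out the log2 fold change lay between 0.88 and 1.178 and the adjusted p between 0.00838 and 0.0487, but with EPO 3 as the only EPO library it was 0.65 and did not pass (edgeR adjusted p = 0.0848). The cells that carry this receptor had markers that moved in both directions. Of the smooth muscle list 8 of 10 fell, and of the pericyte list 5 of 9, among them the defining markers Kcnj8 and Abcc9, subunits of a vascular potassium channel (log2 fold changes -1.08 and -1.40, edgeR adjusted p = 0.0065 and 0.00454). The pericyte marker Ndufa4l2, named after its values were seen like the other non-defining markers here, rose (1.755, edgeR adjusted p = 0.00998; 10.2 to 11.5 CPM in Vehicle and 25.4 to 57.7 CPM in EPO, highest in EPO 1). Notch3, a receptor of mural cells in the same list, was at 99.0 to 103.5 CPM in Vehicle and at 225, 193 and 108 CPM in EPO 1, 2 and 3, the order Pdgfrb also had. It did not pass (log2 fold change 0.78, edgeR adjusted p = 0.0615), though it did without EPO 3 (1.04, adjusted p = 0.00685). The fibroblast list was split, with 4 of 12 markers higher and 2 lower, and a median log2 fold change of 0.04. Its collagen genes Col1a1 and Col1a2 rose 7.47-fold and 4.23-fold (edgeR adjusted p = 0.00167 and 0.00289), each highest in EPO 3. The lower markers were Gsn and Clec3b. The part of these cells in the rise of Pdgfrb was not tested.

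Pdgfra (ENSMUSG00000029231, chromosome 5, 75152292 to 75198215, plus strand) was at 117, 86.1 and 97.7 CPM in Vehicle 1, 2 and 3 and at 138, 125 and 135 CPM in EPO 1, 2 and 3. The groups did not overlap, though Vehicle 1 was close to EPO 2. The means of 100.4 ± 15.8 and 133 ± 6.58 CPM (SD, n = 3) gave a log2 fold change of 0.40 (SE 0.14, 95% interval 0.07 to 0.74, unadjusted p = 0.0241, edgeR adjusted p = 0.0812), so it did not pass. Among the alternatives it passed in DESeq2 (adjusted p = 0.046) and in no other. The 2 gene models of the opposite strand that overlap its exons, Gm42802 and Gm42803, had at most 4 counts in any library. Markers of fibroblasts, which carry Pdgfra, were split: 4 of 12 were higher and 2 lower with a median log2 fold change of 0.04. Of the defining pair, Dcn was at -0.13 (edgeR adjusted p = 0.589) and Lum rose (1.03, adjusted p = 0.0419), a call that was lost with any 1 of the 6 libraries left out. Their part in the Pdgfra values was not tested.

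Pdgfrl (ENSMUSG00000031595, chromosome 8, 40926212 to 40990785, plus strand) encodes a secreted protein that resembles the outer part of the PDGF receptors and has no kinase domain. Its level was 52.9, 40.4 and 38.8 CPM in Vehicle 1, 2 and 3 and 95.7, 81.2 and 97.4 CPM in EPO 1, 2 and 3. The groups were far apart, and EPO 3, the lowest EPO library for Pdgfb, Pdgfc and Pdgfrb, was here the highest. The mean rose from 44.0 ± 7.73 to 91.4 ± 8.89 CPM (SD, n = 3), a log2 fold change of 1.06 (SE 0.16, 95% interval 0.69 to 1.42, edgeR adjusted p = 0.00478). It passed in all 16 alternatives, including the fit with EPO 3 as the only EPO library (1.15, edgeR adjusted p = 0.0317).

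**Figure D2:**
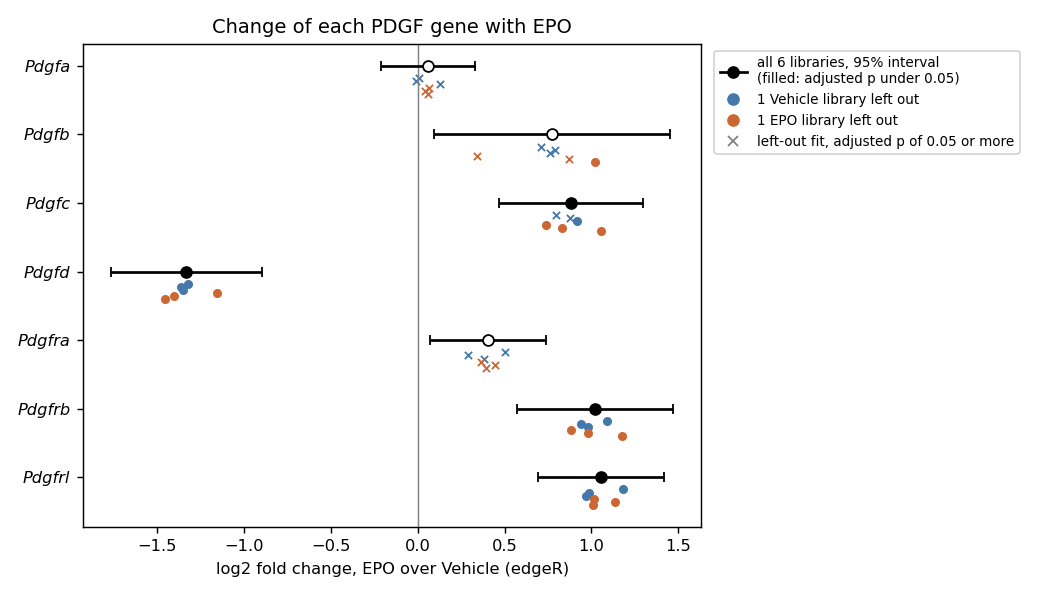
Log2 fold change of EPO over Vehicle (x axis) for each PDGF gene, with the 95% interval of the fit on 6 libraries (black, filled where the adjusted p is under 0.05) and the values with 1 library left out (coloured, crosses where the adjusted p is 0.05 or more). Pdgfd is below 0 and Pdgfrb and Pdgfrl above 0 in every fit, while Pdgfb ranges from 0.34 without EPO 1 to 1.02 without EPO 3.

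To set the genes against each other, levels were divided by exon length and are given as CPM per kb. In Vehicle the order was Pdgfrb (49.2 ± 5.94), Pdgfd (33.9 ± 1.52), Pdgfa (31.9 ± 2.85), Pdgfrl (14.1 ± 2.47), Pdgfb (13.97 ± 0.66), Pdgfra (10.01 ± 1.57) and Pdgfc (7.71 ± 0.51; SD, n = 3 each). Pdgfd and Pdgfa overlapped between libraries, as did Pdgfrl and Pdgfb, while Pdgfrb was the highest and Pdgfc the lowest in each Vehicle library. In EPO the order was Pdgfrb (99.8 ± 20.4), Pdgfa (33.2 ± 0.92), Pdgfrl (29.3 ± 2.85), Pdgfb (23.9 ± 10.8), Pdgfc (14.2 ± 3.16), Pdgfd (13.5 ± 3.21) and Pdgfra (13.2 ± 0.66). Among the last 3 of these the libraries overlapped. Pdgfb, at 35.9, 20.7 and 14.96 CPM per kb in EPO 1, 2 and 3, overlapped with Pdgfa, Pdgfrl, Pdgfc and Pdgfd and was above Pdgfa in EPO 1. By group means Pdgfd went from place 2 to place 6 of 7. The choice of length matters for neighbours, since with the longest transcript Pdgfa came before Pdgfd in Vehicle and Pdgfra before Pdgfd in EPO. Pdgfd and Pdgfra then did not overlap in EPO (9.88 to 15.86 and 18.3 to 20.15 CPM per kb). With that length Pdgfa and Pdgfrb overlapped in Vehicle (44.9 to 53.1 and 45.4 to 56.6 CPM per kb), and Pdgfa was above Pdgfrb in Vehicle 3 (53.1 and 47.15).

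The balance within a library shifted accordingly. Of the summed level per length of the 4 ligand genes, Pdgfd made up 41%, 38.8% and 36.7% in Vehicle 1, 2 and 3 and 10.4%, 17.5% and 21.1% in EPO 1, 2 and 3. Pdgfc made up 8.82% ± 0.54 in Vehicle and 16.6% ± 2.05 in EPO, and Pdgfb 16% ± 1.07 and 27.5% ± 9.31 (SD, n = 3). For both ligands the EPO libraries all lay above the Vehicle libraries, whereas the share of Pdgfa overlapped (36.4% ± 2.23 and 39.6% ± 5.21). The ratio of Pdgfb to Pdgfd, the pair of beta receptor ligands, was 0.375, 0.444 and 0.418 in Vehicle 1, 2 and 3 and 3.66, 1.39 and 0.95 in EPO 1, 2 and 3. Its spread in EPO was wide and EPO 1 was the highest. Between the receptors, the ratio of Pdgfra to Pdgfrb per length was 0.209, 0.191 and 0.209 in Vehicle and 0.118, 0.118 and 0.175 in EPO, with no overlap. These ratios combine values already tested and were not tested again, so the difference between the changes of the receptors was not tested. The shares and ratios used the union of all exons as length and depend on that choice. By the longest transcript, Pdgfa was above Pdgfd in each Vehicle library (44.9 to 53.1 and 33.3 to 35.9 CPM per kb). In EPO 3, Pdgfb was then above Pdgfd (21.15 and 15.86 CPM per kb).

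**Figure D3:**
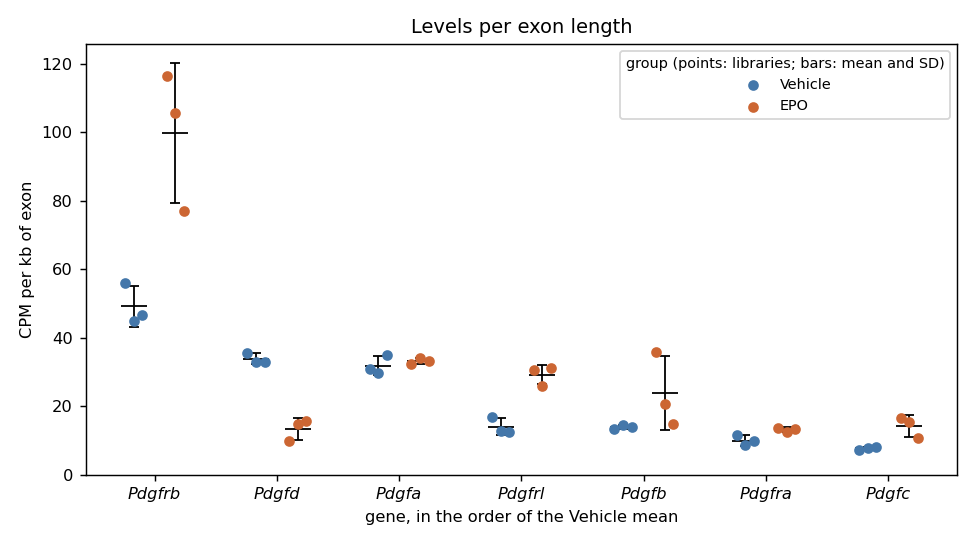
Level of each PDGF gene in CPM per kb of exon (y axis, from 0), ordered by the Vehicle mean, with each library as a point and the mean and SD of each group. Pdgfrb is highest in both groups, and Pdgfd drops from 33.9 to 13.5 CPM per kb, by this length to the level of Pdgfc and Pdgfra.

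The members were also compared by the shape of their profile over the 6 libraries, as the root mean square difference of log2 CPM after each gene was centred on its own mean. The closest pair within the family was Pdgfc and Pdgfrb (0.169), followed by Pdgfrb and Pdgfrl (0.233), Pdgfa and Pdgfra (0.234) and Pdgfb and Pdgfc (0.237). Pdgfd was at least 0.743 from each other member. Across 13374 candidate genes the 2 nearest to each member were named. For Pdgfd they were Ecm2, an extracellular matrix protein (0.049; 221, 212 and 208 CPM in Vehicle 1, 2 and 3 and 58.5, 97.2 and 104 CPM in EPO 1, 2 and 3), and Phkg1, a catalytic subunit of phosphorylase kinase (0.053). Pdgfrb was nearest to Pask (0.077) and Hoxa6 (0.086), and Pdgfrl to Pcdhga3 (0.11) and Rfc3 (0.121). Pdgfc lay closest to Apbb2 and Ankrd28 (0.063 each), Pdgfb to Arid5b (0.081) and Cpd (0.087), Pdgfra to Arhgef40 (0.044) and Ccdc120 (0.052), and Pdgfa to Exosc1 (0.023) and Ptma (0.031). Such nearness is common in 6 libraries: 420 candidates lay within 0.3 of Pdgfd and 6783 within 0.3 of Pdgfa.

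**Figure D4:**
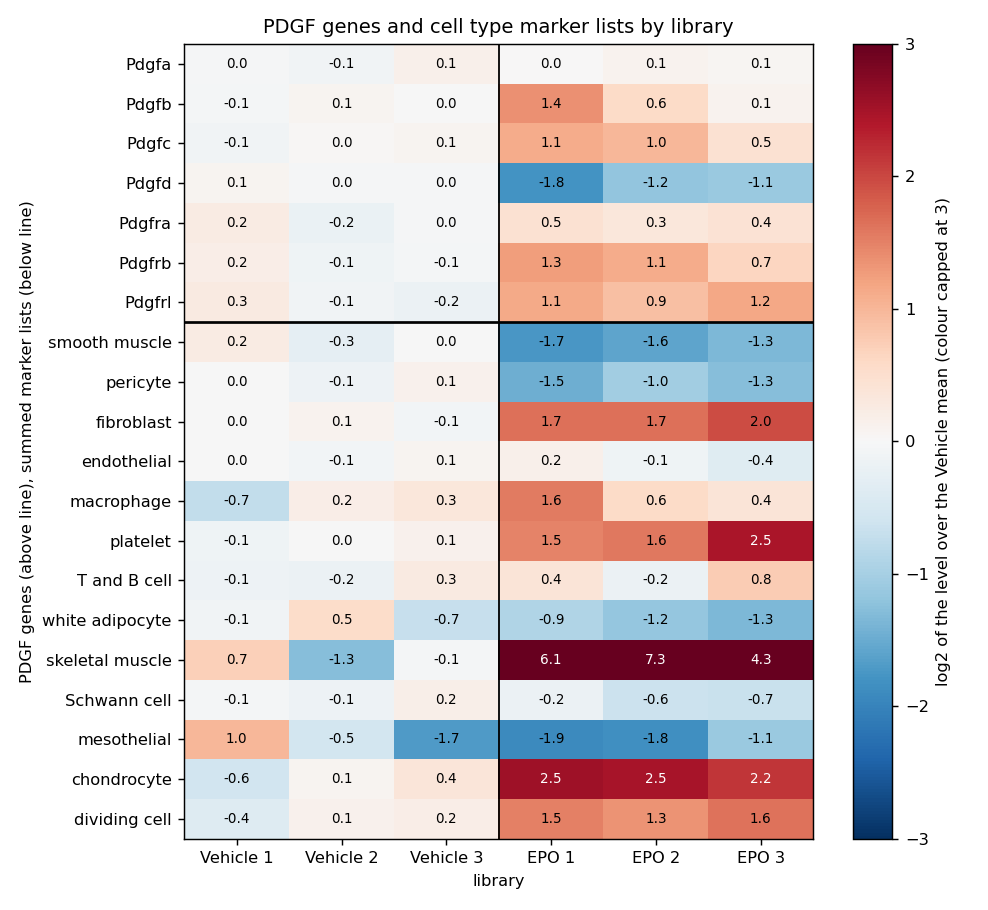
Log2 of the level over the Vehicle mean (colour and printed value, colour capped at 3) for each PDGF gene and for the summed CPM of 13 cell type marker lists (rows) in each library (columns). Smooth muscle and pericyte lists are lower and chondrocyte, dividing cell and skeletal muscle lists higher in every EPO library, and the macrophage list is highest in EPO 1.

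Other marker lists moved with the groups, and their part in the PDGF results was not tested. All 9 dividing cell markers were higher, with Mki67 and Top2a, which define the list, at 6.43 to 11.04 and 5.82 to 10.2 CPM in Vehicle and 45.5 to 58.8 and 46.6 to 55.5 CPM in EPO. All 12 skeletal muscle markers were higher, and the list summed to 8.83 to 34.8 CPM in Vehicle and 424 to 3385 CPM in EPO, lowest in EPO 3 and highest in EPO 2; within EPO, Pdgfrl had the reverse of this order and no other PDGF gene had either order. Of 7 chondrocyte markers 5 were higher (111 to 213 and 738 to 963 CPM summed), with Acan raised in every EPO library and Col2a1 between 4.601 and 19.4 CPM in all 6. Of 9 white adipocyte markers 6 were lower (3890 to 9143 and 2462 to 3338 CPM summed). The summed fibroblast list was 13250 to 15120 CPM in Vehicle and 44570 to 54950 CPM in EPO, of which Col1a1 and Col1a2 made up 6584 to 8390 and 38610 to 49320 CPM. The other 10 fibroblast markers summed to 6128 to 7457 CPM in Vehicle and 5573 to 6186 CPM in EPO, with groups that overlapped. Of these, Lum and, named like Gsn and Clec3b after its values were seen, Pdpn were higher, and Gsn (-1.02, edgeR adjusted p = 0.0164) and Clec3b (-0.92, adjusted p = 0.00889) lower; Gsn missed the threshold without Vehicle 1 or without EPO 2 (highest adjusted p with 1 library left out 0.0555). In edgeR 0 of 8 Schwann cell and 0 of 8 lymphocyte markers were called, with 2 and 0 at an unadjusted p under 0.05, and 1 of 7 mesothelial markers was lower.

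Genes that act with the PDGF family were read from lists made for this purpose. Of 12 proteins that process or bind PDGF chains, 11 were tested, 3 of them higher and 0 lower. There were 0 lower also at an unadjusted edgeR p under 0.05, in DESeq2 and in limma-voom. The share called was 27.3%, near the 23% of all genes tested, and the median log2 fold change was 0.25. Plau, the gene of urokinase, an activator of PDGF-D, had 38.3 ± 6.66 CPM in Vehicle and rose to 82.4 ± 8.48 CPM in EPO (SD with n = 3; log2 fold change 1.11, SE 0.16, edgeR adjusted p = 0.00453). Sparc, a matrix protein that binds the B chain, rose from 3790 ± 501 to 9632 ± 557 CPM (1.35, SE 0.21, adjusted p = 0.0057). Furin, which cuts the A and B chains, rose less (0.45, SE 0.12, adjusted p = 0.038) and lost its call in 9 of 16 alternatives, among them each fit without a Vehicle library, without EPO 2 and without EPO 3 (highest adjusted p = 0.153). Named after their values were seen, Plat, the activator of PDGF-C, was at 112.5 ± 12.6 and 108 ± 37.96 CPM (-0.06, SE 0.26, adjusted p = 0.897), and St14, the gene of matriptase, at 2.17 ± 0.53 and 4.35 ± 1.60 CPM (1.003, SE 0.34, adjusted p = 0.0733). Without Vehicle 3 there was 1 lower member, Pcsk6 (adjusted p = 0.0212).

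Signalling proteins that dock on or act below the receptors came next. Of 32 tested, 4 were higher (12.5%, near the 12.9% of all genes tested) and 0 lower, with 1 lower at an unadjusted p under 0.05 and 0 lower in DESeq2 and limma-voom. The median log2 fold change was 0.11. Fyn, a Src family kinase, rose from 34.9 ± 2.69 to 60.7 ± 1.02 CPM (log2 fold change 0.80, SE 0.11, edgeR adjusted p = 0.00375) and passed in every alternative. The others were Nras, a Ras protein (0.63, adjusted p = 0.0197), and the adaptors Crkl (0.63, adjusted p = 0.0334) and Nck2 (0.39, adjusted p = 0.0428), the last named to complete the count. With 1 library left out the number of higher members ran from 1 (without Vehicle 1, Vehicle 2 or EPO 2) to 5, with 2 without Vehicle 3. With the replicate number as a block it was also 2.

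Negative regulators of receptor signalling had more calls by count. Of 19 tested, 8 were higher (42.1%, where 12.9% of all genes tested were higher) and 0 lower, with 1 lower at an unadjusted p under 0.05 and 0 lower in DESeq2 and limma-voom. The median log2 fold change was 0.40. Spred1, an inhibitor of the Ras pathway, rose from 50.4 ± 2.86 to 85.8 ± 7.45 CPM (0.77, SE 0.12, edgeR adjusted p = 0.00524). The MAP kinase phosphatases Dusp6 and Dusp5 rose from 45.2 ± 6.36 to 79.5 ± 4.41 CPM (0.81, adjusted p = 0.00662) and from 5.86 ± 1.31 to 13.1 ± 0.14 CPM (1.17, adjusted p = 0.00797). The largest changes of the list, named after their values were seen, were those of Socs1 (2.05, edgeR adjusted p = 0.0245) and Socs3 (2.04, adjusted p = 0.00945). Socs1 lost its call in limma-voom and without Vehicle 1, Vehicle 2 or Vehicle 3. The count was 4 without Vehicle 1, without Vehicle 2, and with EPO 3 as the only EPO library.

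Of 22 genes induced early by growth factors, 5 were higher and 2 lower, with a median of 0.32. The share called in either direction was 31.8%, where it was 23% of all genes tested. Myc, a transcription factor of cell growth, rose from 12.5 ± 1.98 to 25.4 ± 3.36 CPM (log2 fold change 1.02, SE 0.17, edgeR adjusted p = 0.00706). The lower members were Srf, the factor that binds the CArG box, at 157 ± 15.3 and 101.0 ± 1.58 CPM (-0.63, adjusted p = 0.0109), and Fosb (-0.94, adjusted p = 0.0146), which lost its call without Vehicle 2 (0.0572). Srf missed the threshold with EPO 3 as the only EPO library (adjusted p = 0.0836). The remaining higher members, named to complete the count, were the cyclin gene Ccnd1 (0.66), the chemokine genes Ccl7 (1.48) and Ccl2 (1.35), and Egr2 (0.65). The number of higher members was 1 without Vehicle 1, 2 without Vehicle 2, EPO 2 or EPO 3, and 3 without Vehicle 3. Fos and Egr1, named after their values were seen, were at 0.13 and -0.45 and did not pass (adjusted p = 0.664 and 0.329).

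Relatives of the family were read in the same fit. Of the genes for the other class III receptors and their ligands, which share the split kinase domain of the PDGF receptors, 6 were tested and 0 passed in edgeR, where 2 were at an unadjusted p under 0.05. DESeq2 called 2, limma-voom 0, and edgeR without EPO 2 called 1, Csf1r. By smallest p, Csf1r, the receptor of macrophage growth factor, stood at 0.66 (edgeR adjusted p = 0.0778), Flt3 at 1.45 (0.103) and Csf1 at -0.35 (0.176). The 8 VEGF genes encode ligands that share the cystine-knot fold of PDGF, or the receptors of VEGF. Of these 8, 4 were higher and 1 lower (62.5% called, where 23% of all genes tested were). Vegfd, whose protein is a ligand of VEGF receptors, fell by 1.31 on the log2 scale (edgeR adjusted p = 0.00931), beside -1.33 for Pdgfd, and missed the threshold with EPO 3 as the only EPO library (adjusted p = 0.0769). Flt4 and Pgf rose by 1.71 and 1.70 (adjusted p = 0.00251 and 0.00289), and Kdr (1.003) and Vegfc (0.62) completed the higher members, whose number was 2 without Vehicle 1. The lower members numbered 2 without EPO 1.

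**Figure D5:**
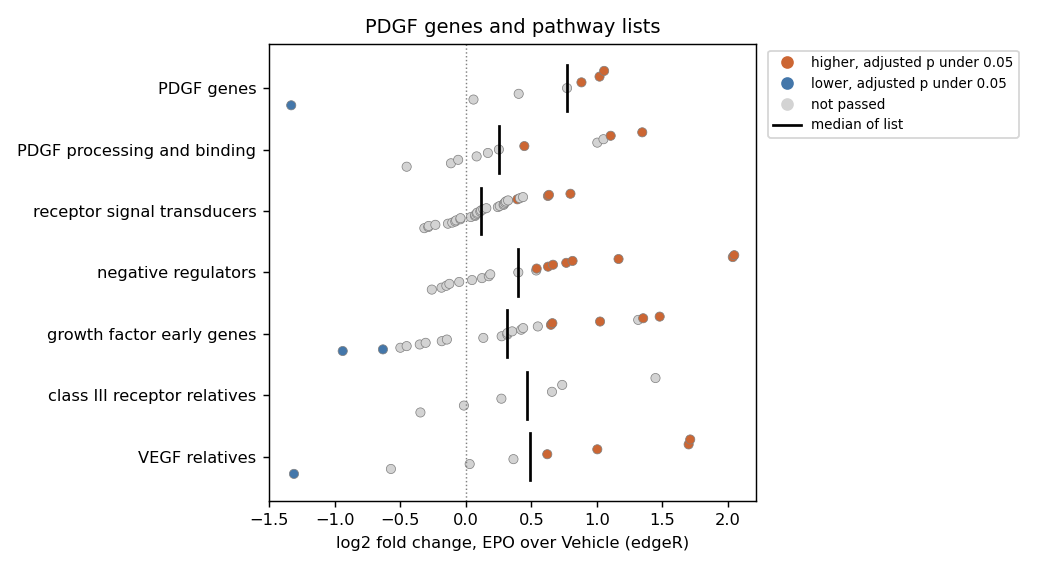
Log2 fold change of EPO over Vehicle (x axis) for every tested gene of the PDGF family and of 6 related lists (rows), coloured by the call at an adjusted p under 0.05, with the median of each list as a bar. Negative regulators hold 8 higher and 0 lower genes, and signal transducers 4 of 32.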

How the data were processed

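RNA of 6 aorta libraries was sequenced as paired ends after the NEBNext Ultra kit, per the labels' protocols. Per the submitters' processing notes, the tools were CASAVA 1.8 and TopHat2 2.0.6, on build mm10. How reads were assigned to genes, and whether by strand, is not given in the sources used here. Raw counts were deposited, 1 value per Ensembl gene and library. Columns abbreviated Con were read as Vehicle. Symbols, GRCm38 coordinates (the assembly of mm10) and exon lengths came from GENCODE M21 for 47224 of 47643 IDs.

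In R 4.3.3, edgeR 4.0.16 (filterByExpr, TMM, glmQLFit and glmQLFTest, a two-sided test with the group alone in the model) was fitted on all genes, after being tested on simulated data. Adjusted p-values without a named tool are edgeR's. The standard error is the log2 fold change over the root of F. Log2 CPM had a prior count of 2. Alternatives were other scalings and filters, DESeq2 1.42.0, limma-voom (limma 3.58.1), robust dispersion, a replicate block, leaving out single libraries, and a 2-fold minimum. Removing EPO 1 with EPO 2, or skeletal muscle and haemoglobin genes, was added after seeing the data.

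The members, lists and tests were chosen with earlier results of these data known. Named are the members, up to 3 genes of smallest p per pathway list, the 2 defining markers per cell type where used, and the 2 nearest profiles per member among genes of at least 1 CPM with a proper name. A planned comparison of protein sequences was not made. Flt3l had no row in the table used here.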

Additional observations from a re-analysis of the deposited data

How the results depend on the processing

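Over 16 alternatives, 104 of 112 log2 fold changes of the 7 members kept their side of the threshold. Of the rest, 4 lost a call and 4 gained one, and 0 changed direction while called. The 2-fold minimum is not among these 16. With it 2 members were higher and 1 lower, since Pdgfc, at 1.84-fold, was no longer counted. The number of higher members, 3, was 5 in DESeq2 and 1 without both EPO 1 and EPO 2, where the lone EPO library is assumed to vary like the Vehicle libraries; with single libraries left out it ran from 2 to 4, and the lower member was Pdgfd in each. No clear pairing of libraries by replicate number was seen. Deviations of same-numbered libraries correlated at -0.009, -0.01 and 0.127 across genes. Vehicle 1 and Vehicle 2 correlated best with another number, and Vehicle 3 with EPO 3. Deviations within a group of 3 depend on each other, so these values cannot exclude a pairing. With the replicate block the members numbered 3 higher and 1 lower, with all genes at 1630 higher and 1254 lower against 2133 and 1671. With single libraries left out, all genes ran from 936 to 2265 higher and from 699 to 2016 lower. Counts in the related lists that moved by over 1.5 times, beside those given above: with a 2-fold minimum, signal transducers 0 higher (4 in the main analysis), negative regulators 3 (8), early genes 3 higher (5) and 0 lower (2), and all genes 1329 higher and 919 lower; with DESeq2, processing and binding proteins 5 higher (3); with EPO 3 as the only EPO library, signal transducers 1 higher, early genes 2 higher and 0 lower, VEGF genes 0 lower (1), and all genes 1085 higher and 463 lower; with DESeq2 or library size alone, VEGF genes 2 lower. With the longest transcript as length, levels in CPM per kb for Vehicle and EPO were 48.2 and 50.2 (Pdgfa), 11.1 and 20.5 (Pdgfc), 14.7 and 19.4 (Pdgfra), and 21.3 and 44.2 (Pdgfrl), and 19.7 for Pdgfb in Vehicle, because the union of exons is longer. With 3 libraries a group, small changes can be missed.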
